A study of Mus musculus with 3 samples.

Results

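Hepatocytes of mice fed a high fat diet with the bile acid hyodeoxycholic acid (HDCA) were compared with hepatocytes of mice fed a normal diet. The cells were the 5611 barcodes of these 2 libraries, out of 16918 barcodes in the 3 libraries of the study, that had at least 200 detected genes and at most 50% mitochondrial counts. Cells with 3 or more detected genes of an 8-gene endothelial set (Stab2, Ptprb, Clec4g, Fcgr2b, Kdr, Dnase1l3, Gpr182, Oit3) or of a 7-gene Kupffer set (Clec4f, Cd5l, Vsig4, C1qa, C1qb, C1qc, Marco) were left out. The normal diet (ND) library gave 2669 of its 5755 barcodes and the HDCA library (HFD_HDCA) gave 2942 of its 4873. Within a library the counts of these cells were added up, and levels are given as counts per 1000000 nuclear-encoded counts of the library (CPM).

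All mice were labelled wild type (WT) and were fed for 12 weeks, the ND group on normal diet, the HFD group on 60% high fat diet and the HFD_HDCA group on 60% high fat diet with 0.25% HDCA. Primary hepatocytes were freed by collagenase perfusion and sequenced as single cells in droplets, with a chemistry that reads the 3′ end of transcripts and in which each captured molecule carries a unique molecular identifier (UMI). Each group had 1 library, so the difference between ND and HFD_HDCA has no replicate check and no test was made. The 2 groups differ in the fat of the diet and in HDCA at once, and the effects of these cannot be told apart here. HFD levels are given beside those of ND and HFD_HDCA for some genes. The sources used here do not give strain, sex, age, the hour at which cells were isolated or how many mice a library holds.

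HDCA is a bile acid that gut bacteria form by modifying primary bile acids. Hepatocytes make primary bile acids from cholesterol, with Cyp7a1 at the rate-limiting step of the classical route. Bile acids act through the nuclear receptor FXR (Nr1h4) and its target SHP (Nr0b2). The receptor PPARα (Ppara) drives genes of fatty acid oxidation, and SREBP factors drive sterol and fatty acid synthesis under the control of the Insig proteins. Hepatocytes also divide labour along the lobule, from the portal vein to the central vein, and follow a circadian clock set partly by feeding.

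The hepatocyte label was checked against markers. All 10 hepatocyte markers (among them Alb, Apoa1, Ttr and Fabp1) were detected, with a summed level of 111388 CPM in ND and 115129 CPM in HFD_HDCA, against 29346 CPM in the 165 left-out cells of both libraries. The 8 endothelial genes summed to 7.94 CPM in ND and 3.49 CPM in HFD_HDCA, against 10792 CPM in the left-out cells. The 7 Kupffer genes summed to 2.65 and 3.84 CPM, against 5052 CPM, and Marco had 0 counts in either library. Both sets are those of the cell rule, so their low sums in kept cells follow from it and are no check of the label. Markers of stellate cells stood at 6.01 and 9.94 CPM and those of T and NK cells at 5.53 and 8.72 CPM. The 6 cholangiocyte genes summed to 95.97 CPM in ND and 33.7 in HFD_HDCA. Of these, Krt19, Krt7, Epcam and Tspan8 had 0 counts in both, Spp1 had 2 and 22, and Sox9 held the rest, with a count in 11.4% of ND and 4.96% of HFD_HDCA cells. B and plasma cell genes summed to 11.3 CPM in ND and 124 in HFD_HDCA, neutrophil and monocyte genes to 25.5 and 5.23, and erythroid genes to 93.6 and 85.1. Alas2 held all of the erythroid sum in ND and 58.6 CPM of it in HFD_HDCA. The globin genes Hba-a1, Hba-a2, Hbb-bs and Hbb-bt had 0 counts in ND, and 28, 21, 97 and 6 in HFD_HDCA. The part of cells of these other types in the results was not tested beyond the setting without them given below. The libraries shared 10 barcodes, of which 1 was kept in both. Edges of the rule held few cells: 4 ND and 2 HFD_HDCA cells were kept with 2 endothelial genes, and 7 and 4 cells were left out with exactly 3. Between 45 and 50% mitochondrial counts, 39 ND and 36 HFD_HDCA cells were kept, while 33 and 57 barcodes lay between 50 and 55%.

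HFD_HDCA cells were deeper and held fewer mitochondrial counts. The median kept cell had 936 UMIs (quartiles 658 and 2094) and 503 genes in ND, and 1124 UMIs (quartiles 724 and 3323) and 614 genes in HFD_HDCA. Mitochondrial counts made up 11.7% of the median ND cell and 7.47% of the median HFD_HDCA cell. Over all barcodes before filtering the medians were 61.1% and 14.5%. The summed nuclear-encoded counts were 4157680 in ND and 5733247 in HFD_HDCA.

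**Figure D1:**
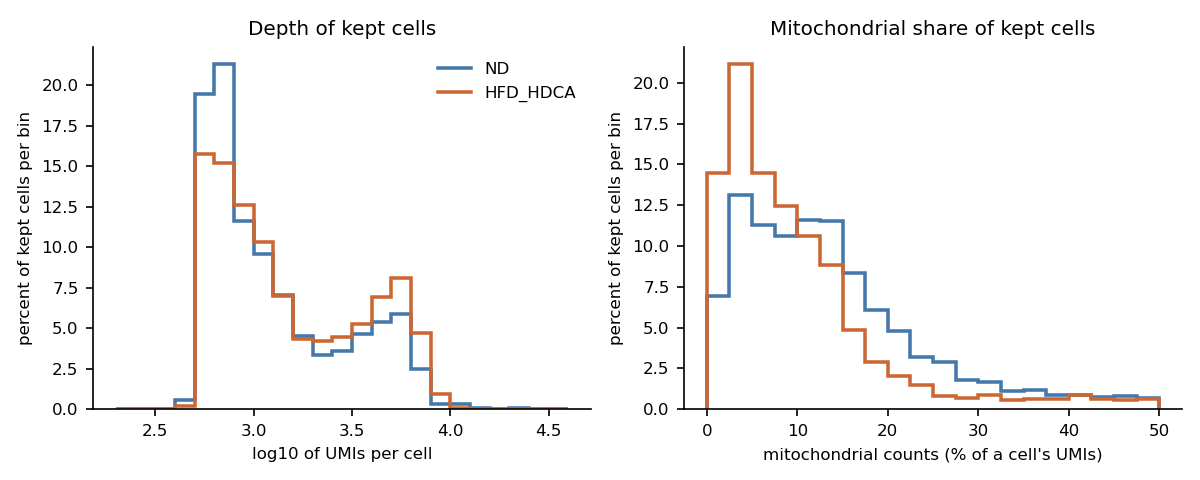
Distribution of UMIs per kept cell (left, log10 of UMIs) and of the mitochondrial share of its UMIs (right, percent) in the ND (blue) and HFD_HDCA (orange) libraries, as the percent of kept cells per bin. Both libraries have a main group of shallow cells and a smaller group of deep cells, and the HFD_HDCA cells lie further towards high depth and low mitochondrial share, with medians of 1124 against 936 UMIs and 7.47% against 11.7%.

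Most genes stood at like levels in the 2 libraries, and some did not. Of the 6944 genes with at least 100 counts over both libraries (measured genes), 195 were at least 2-fold higher in HFD_HDCA (2.81%) and 162 at least 2-fold lower (2.33%), 5.14% in all. The log2 ratio of HFD_HDCA over ND was taken after adding 0.5 to each count, and the 95% interval printed after a ratio is from the exact conditional binomial and covers counting error only. The median log2 ratio of all measured genes was 0.02. The whole interval lay beyond 2-fold for 106 of the higher and 85 of the lower genes, and 42 and 27 genes differed at least 4-fold. Of the higher genes, 52 reached the minimum of 100 counts only through HFD_HDCA, and 48 of the lower genes did so only through ND, so they had to differ. A gene passed only through 1 library if, at the lower of its CPM values in both, it would have had fewer than 100 counts. In summed counts, fewer cells with a transcript and less of it per cell cannot be told apart.

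**Figure D2:**
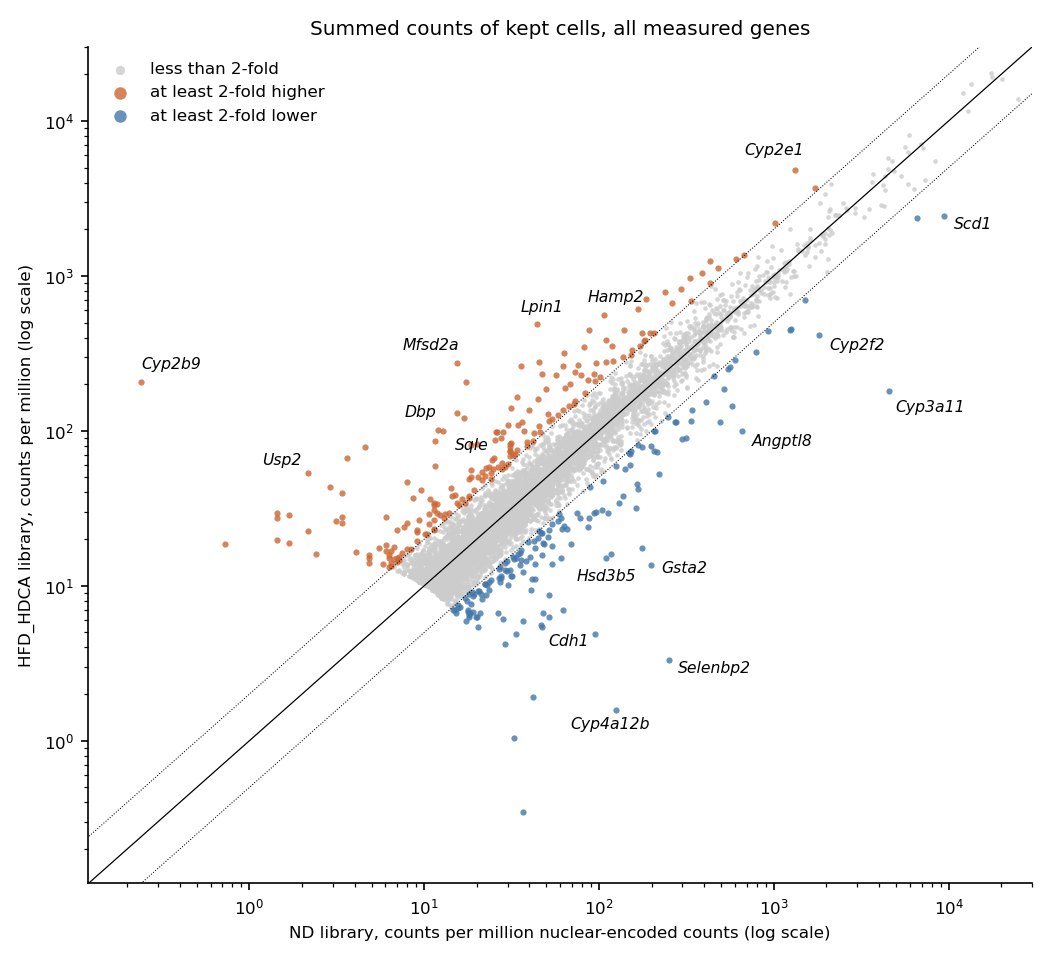
Level of each of the 6944 measured genes in the ND library (x axis) and the HFD_HDCA library (y axis), in CPM on log scales, with the line of equality and dotted lines at 2-fold. The 195 genes at least 2-fold higher in HFD_HDCA are orange and the 162 at least 2-fold lower are blue, with Cyp2b9, Mfsd2a and Lpin1 far above the line and Cyp4a12b, Selenbp2 and Cyp3a11 far below it.

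Genes with many functions stood furthest apart, among them P450 enzymes, a lipid transporter and genes of no list. Taking genes that reached 50 CPM or more in 1 of the libraries, Cyp2b9, a P450 whose expression is normally female-biased, had 1 count in ND and 1188 in HFD_HDCA, a log2 ratio of 9.17 (7.27 to 15.1). The HFD level of Cyp2b9 was 5.13 CPM. Mfsd2a, a transporter of lysophosphatidylcholine, stood at 15.4 CPM in ND, 276 in HFD_HDCA and 217 in HFD, a log2 ratio of HFD_HDCA over ND of 4.15 (3.80 to 4.55). Lowest were Cyp4a12b, a fatty acid hydroxylase, at 126 and 1.57 CPM (log2 -6.24, -7.46 to -5.39), and Selenbp2, a selenium-binding protein, at 253 and 3.31 CPM (log2 -6.22, -6.99 to -5.60). Cyp2b9 passed the count minimum only through HFD_HDCA, and Cyp4a12b and Selenbp2 only through ND. Cyp3a11, the main drug-oxidising P450 of mouse liver, went from 4559 CPM in ND to 180 in HFD_HDCA, a log2 ratio of -4.66 (-4.75 to -4.57), with 108 CPM in HFD. Outside the lists, the retinol dehydrogenase Rdh9 stood at 11.5 CPM in ND, 85.6 in HFD_HDCA and 29.4 in HFD (2.88, 2.46 to 3.35), and Osgin1, a gene induced by oxidative stress, at 162, 31.7 and 58.4 CPM (-2.35). Paxx, of DNA end joining, and Gse1 had ratios of -3.02 and -2.55 and passed the count minimum only through ND. Igkc, an immunoglobulin light chain and no hepatocyte gene, was also among the highest with 19 and 448 counts, but all 448 lay in 1 HFD_HDCA cell. Without the 10 ND and 12 HFD_HDCA cells that had at least 3 markers of 1 other cell type, Igkc had 9 and 0 counts, and 193 genes were higher and 163 lower.

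To see whether such differences ran through the cells, each cell was thinned to 500 nuclear-encoded counts, which left out 334 ND and 175 HFD_HDCA cells as too shallow. A count of Cyp3a11 was found in 83.5% of ND cells (81.9 to 85.0%, exact binomial) and in 8.93% of HFD_HDCA cells (7.89 to 10.1%). Unthinned, the Cyp3a11 shares were 94.8 and 17.3%. The left-out endothelial and Kupffer cells, which should lack it, had Cyp3a11 in 58.8% of 102 ND cells and in 1.85% of 54 HFD_HDCA cells. Kept and left-out cells of ND were thus both above those of HFD_HDCA, and the part of free RNA in the shares was not tested. Cyp2b9 was counted in 0 of the thinned ND cells, where 0 allows a share with a count of up to 0.158% (unthinned, 1 ND cell held 1 count), and in 9.94% of the HFD_HDCA cells (8.85 to 11.1%), against 1.85% of left-out HFD_HDCA cells. Scd1, a stearoyl-CoA desaturase, was in 97.6 and 60.7% of kept cells, but also in 93.1 and 46.3% of left-out cells.

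**Figure D3:**
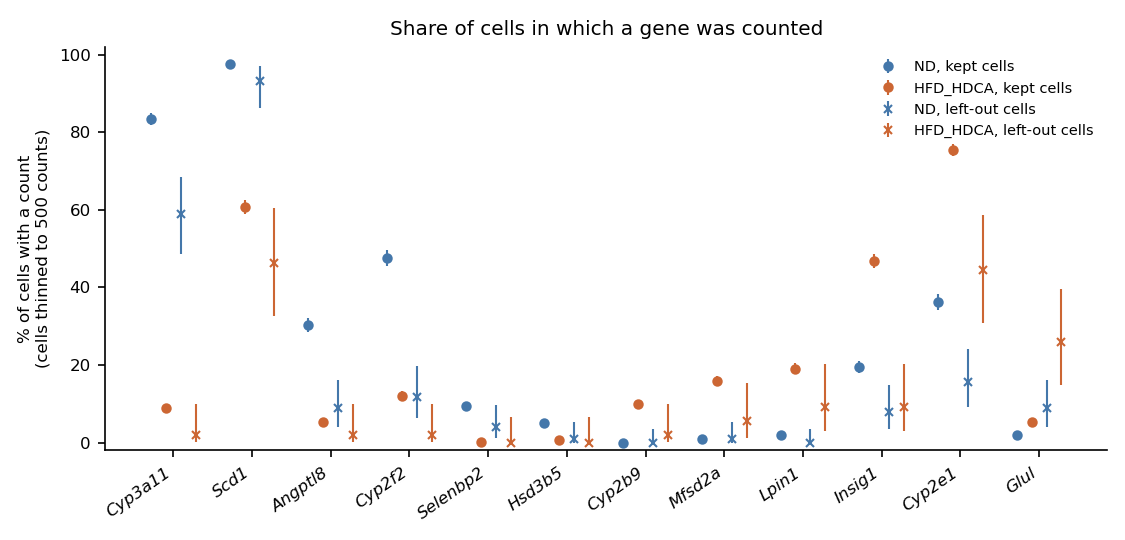
Percent of cells with a count of each of 12 genes after thinning to 500 counts per cell, in kept cells (circles) and left-out endothelial and Kupffer cells (crosses) of ND (blue) and HFD_HDCA (orange), with exact 95% binomial intervals. Cyp3a11 stands at 83.5% of ND and 8.93% of HFD_HDCA kept cells and Cyp2e1 stands at 36.3 and 75.5%, while left-out cells of ND hold Cyp3a11 in 58.8%.

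By number of genes, cholesterol synthesis was the list with the most higher in HFD_HDCA. By share it did not stand alone, since 14 of 21 measured clock output and rhythmic genes, given below, were also higher. All 27 listed genes were measured, 18 were at least 2-fold higher, none was 2-fold lower, and the median log2 ratio was 1.38 against 0.02 for all measured genes. Mvk and Mvd, both of the mevalonate steps, reached the count minimum only through HFD_HDCA. Early in the path, the synthase Hmgcs1 stood at 140 CPM in ND and 444 in HFD_HDCA, a log2 ratio of 1.67 (1.54 to 1.80), with 292 in HFD. Further down the path, Sqle, the squalene epoxidase, stood at 12.7 and 99.4 CPM (2.95, 2.56 to 3.40). The sterol oxidase Msmo1 was at 87.3 and 445 CPM (2.35, 2.19 to 2.51), and the ketosteroid reductase Hsd17b7 at 47.1 and 233 CPM (2.30, 2.09 to 2.53). Insig1, which holds SREBP precursors in the endoplasmic reticulum, stood at 432 and 1243 CPM (1.52, 1.45 to 1.60) and was counted in 19.5 and 46.8% of thinned cells, with 7.84 and 9.26% of left-out cells. Srebf2, which encodes the SREBP factor of this pathway, had a ratio of -0.10, and that of its escort protein Scap one of -0.67. For Hmgcs1, Sqle, Msmo1, Hsd17b7 and Insig1, the HFD level lay between those of ND and HFD_HDCA.

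Promoters are shown because these genes stood higher together. They are RefSeq sequences of build GRCm38.p6, 250 bases before to 50 after the start, written in the direction of the gene, and 19 of the 27 genes matched an entry. Capitals in Hmgcs1 mark a sterol element core searched as TCACNCCAC and CCAAT boxes, and in Hsd17b7 CCAAT boxes only, both searched on both strands (a CCAAT box on the other strand reads ATTGG). The 2 motifs do not overlap in these sequences. The Hmgcs1 promoter is on chr13:119690101-119690400 (plus strand) and that of Hsd17b7 on chr1:169969156-169969455 (minus strand).
Hmgcs1: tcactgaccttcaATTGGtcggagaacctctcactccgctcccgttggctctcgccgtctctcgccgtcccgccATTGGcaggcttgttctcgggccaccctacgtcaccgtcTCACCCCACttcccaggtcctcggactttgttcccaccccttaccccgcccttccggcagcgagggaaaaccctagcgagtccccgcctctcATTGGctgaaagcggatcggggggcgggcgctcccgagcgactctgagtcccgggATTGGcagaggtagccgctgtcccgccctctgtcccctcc
Hsd17b7: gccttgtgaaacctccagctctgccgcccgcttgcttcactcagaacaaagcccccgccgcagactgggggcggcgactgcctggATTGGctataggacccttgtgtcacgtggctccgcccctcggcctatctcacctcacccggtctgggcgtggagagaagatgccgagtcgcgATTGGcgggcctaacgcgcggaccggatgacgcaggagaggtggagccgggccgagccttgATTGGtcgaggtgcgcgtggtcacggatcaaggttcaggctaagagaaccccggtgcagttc
The sterol element core lay 137 to 129 bases before the Hmgcs1 start. It was found in 1 of the 19 genes and in 1.24% of all 32851 promoters. A CCAAT box was found in 17 of the 19 genes and in 12 of the 13 matched genes that were at least 2-fold higher, against 41.1% of all 27025 genes with a promoter in the table and 43.2% of the measured genes with one. A match is a description of these windows.

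Genes of fatty acid and triglyceride synthesis split. Of 26 measured among 29 listed, 8 were at least 2-fold higher, 2 were 2-fold lower, and the median log2 ratio was 0.63. The phosphatidate phosphatase Lpin1 stood at 44.3 CPM in ND, 489 in HFD_HDCA and 989 in HFD (log2 3.46, 3.25 to 3.69 for HFD_HDCA over ND), and its relative Lpin2 at 63.0 and 319 CPM (2.34, 2.15 to 2.53). Enzymes of polyunsaturated fatty acid synthesis stood higher as well: the desaturases Fads2 at 167 and 615 CPM (1.88, 1.76 to 2.0) and Fads1 at 175 and 427 CPM (1.28, 1.17 to 1.41), and the elongase Elovl2 at 430 and 900 CPM (1.07, 0.99 to 1.14). Aacs, Thrsp and Gpam were the other genes past 2-fold, with ratios of 2.34, 1.72 and 1.05. In the other direction, Scd1 stood at 9409 CPM in ND, 2426 in HFD_HDCA and 3192 in HFD, a log2 ratio of -1.96 (-1.98 to -1.93). Mlxipl, which encodes the sugar-responsive factor ChREBP, stood at 271 and 115 CPM (-1.24, -1.38 to -1.10). The synthase Fasn at 246 and 379 CPM (0.62), Acly at 0.82 and Srebf1 at -0.15 did not reach 2-fold.

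Of the lipid droplet and lipolysis genes, 17 of 24 were measured, with 2 higher, 1 lower and a median of -0.14. The lower one was Angptl8, a feeding-induced inhibitor of lipoprotein lipase, at 656 CPM in ND, 99.6 in HFD_HDCA and 24.6 in HFD (-2.72, -2.85 to -2.59). Fabp2, a fatty acid binding protein, stood at 93.6 and 233 CPM (1.31, 1.15 to 1.48), beside Mfsd2a above. The droplet coat gene Plin2 had a ratio of -0.08. Among 21 measured lipoprotein genes of 22 listed, the median was 0.22 and Apoa4, an apolipoprotein of triglyceride-rich particles, was alone past 2-fold, at 30.8 and 79.2 CPM (1.36, 1.08 to 1.66). This 1 of 21 was near the 5.14% of all measured genes. The ratio of Apoa4 was 0.80 in cells thinned to 500 counts. The HDL receptor Scarb1 stood at 58.9 and 33.0 CPM (-0.84).

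Bile acid synthesis genes leaned lower. Of 17 measured among 20 listed, 3 were at least 2-fold lower, 1 was 2-fold higher and 5 lay above 0, with a median of -0.19. Cyp7a1, the rate-limiting enzyme, stood at 38.0 CPM in ND, 14.5 in HFD_HDCA and 211 in HFD, a log2 ratio of -1.39 (-1.79 to -1.0) against ND. Cyp2c70, which makes the muricholic acids of mice, stood at 575 and 145 CPM (-1.99, -2.10 to -1.87), and 620 in HFD. The hydroxylase Cyp2a12 stood at 274 and 113 CPM (-1.28, -1.42 to -1.14). Enzymes of the alternative route and of the 12-hydroxylation branch did not reach 2-fold, with Cyp27a1 at 174 and 103 CPM (-0.76), Cyp7b1 at 193 and 116 CPM (-0.73) and Cyp8b1 at 133 and 86.2 CPM (-0.63). Along the lobule, described below, these ratios were unequal. The oxysterol hydroxylase Cyp39a1 was the higher one at 10.3 and 21.6 CPM (1.05, 0.55 to 1.60), and its ratio was 0.92 with cells weighted equally. In the supply of taurine for conjugation, 6 of 7 genes were measured, the median was -0.06 and the decarboxylase Csad was the 1 gene past 2-fold, at 409 CPM in ND, 154 in HFD_HDCA and 54.8 in HFD (-1.41, -1.53 to -1.29).

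Genes of bile acid transport and sensing were past 2-fold at a share near that of all measured genes (5.14%). Among 16 measured transporters of 21 listed, 1 was 2-fold higher, none was lower and the median was -0.16. It was Slco1b2, an uptake carrier of organic anions, at 1015 and 2207 CPM (1.12, 1.07 to 1.17). The canalicular bile salt pump Abcb11 stood at 225 and 116 CPM (-0.96, -1.11 to -0.81) and the uptake carrier Slc10a1 had a ratio of 0.36. Of 15 measured nuclear receptor and receptor-linked genes among 20 listed, none reached 2-fold and the median was 0.07. Nr0b2, the SHP repressor, stood at 107 and 54.8 CPM (-0.96, -1.18 to -0.75). Fgfr4, the receptor for intestinal FGF15, stood at 31.7 and 15.9 CPM (-0.998, -1.40 to -0.60), just inside the limit. Nr1h4 had a ratio of 0.38 and Nr1i3, the receptor CAR, of 0.77.

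**Figure D4:**
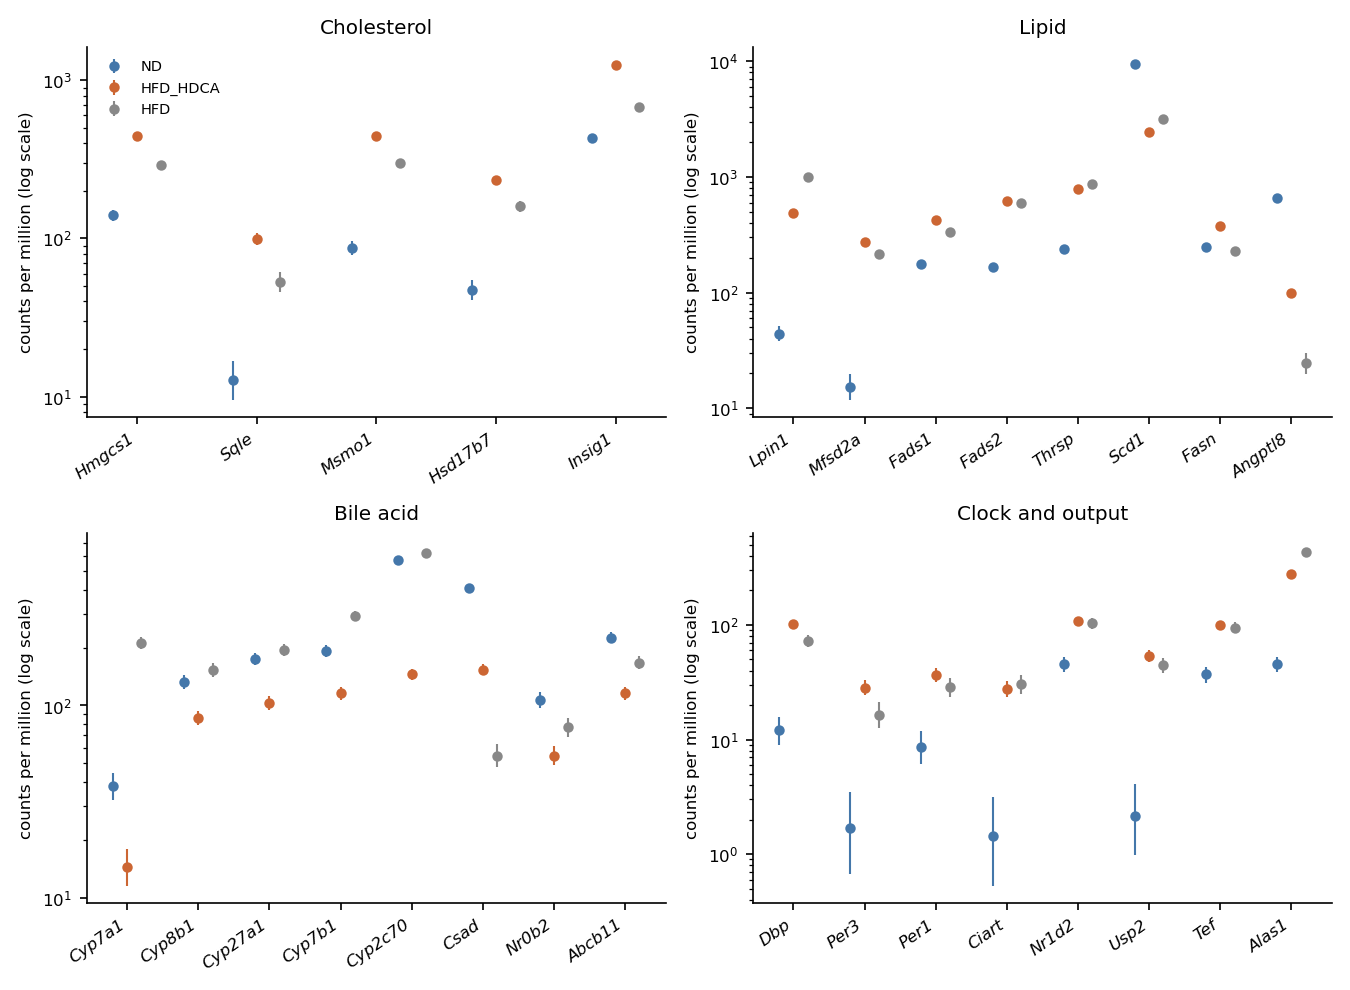
Levels of genes of sterol, lipid and bile acid metabolism and of the clock in the summed kept cells of ND (blue), HFD_HDCA (orange) and HFD (grey), in CPM on log axes, with exact 95% Poisson intervals for counting error. Hmgcs1, Sqle and Lpin1 stand higher in HFD_HDCA than in ND, Scd1, Angptl8, Cyp2c70 and Csad stand lower, and Cyp7a1 stands at 38.0, 14.5 and 211 CPM in ND, HFD_HDCA and HFD.

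PPARα targets stood slightly higher as a list, with a few far above. Of 34 measured among 40 listed, 5 were at least 2-fold higher, none was lower, 25 lay above 0 and the median was 0.27. The acyl-CoA thioesterases Acot4 (20 and 81.6 CPM, log2 2.02, 1.69 to 2.39) and Acot3 (2.89 and 43.6 CPM, 3.86, 3.09 to 4.89) and the pantetheinase Vnn1 (7.94 and 46.6 CPM, 2.53, 2.03 to 3.12) were among them. Acot3 and Vnn1 passed the minimum only through HFD_HDCA. In HFD, Acot4 stood at 36.7 CPM, Acot3 at 3.78 and Vnn1 at 20. The fatty aldehyde dehydrogenase Aldh3a2 stood at 96.2 and 275 CPM (1.51, 1.36 to 1.68). The fatty acid transporter Cd36 stood at 31.3 and 140 CPM (2.16, 1.90 to 2.44), with 302 CPM in the left-out cells. Other targets of the list lay nearer to 0, among them Cpt1a, the gate of mitochondrial oxidation, at 151 and 262 CPM (0.80), Cyp4a14 at 403 and 617 CPM (0.61), and Cyp4a10 at -0.38. Ppara itself stood at 43.1 and 74.7 CPM (0.79, 0.54 to 1.05). Of 22 measured oxidation and ketogenesis genes among 23 listed, 1 was higher, none was lower and the median was 0.02. This share past 2-fold was near the 5.14% of all measured genes. The higher gene was Abcd2, a peroxisomal importer of very long-chain acyl-CoA, at 19.2 and 41.5 CPM (1.10, 0.74 to 1.49). Its ratio was 0.83 in cells thinned to 500 counts, on fewer than 100 counts.

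Drug-metabolising P450s stood on both sides. Of 31 measured among 37 listed genes in the files, 7 were 2-fold higher, 5 were 2-fold lower and the median was 0.20. Beside Cyp3a11, its relatives Cyp3a59 (46.4 and 5.58 CPM, -3.04, -3.64 to -2.51, measured only through ND) and Cyp3a25 (1234 and 450 CPM, -1.46, -1.52 to -1.39) were lower, as was Cyp2f2 (1806 CPM in ND, 414 in HFD_HDCA and 1086 in HFD, -2.12, -2.19 to -2.06). Higher were Cyp2e1, the ethanol-inducible P450, at 1315 and 4845 CPM (1.88, 1.84 to 1.92), Cyp2a5 at 45 and 161 CPM (1.84, 1.61 to 2.08) and Cyp2c37 at 119 and 353 CPM (1.56, 1.42 to 1.71). Alas1, the first enzyme of haem synthesis, stood at 45.2 and 279 CPM (2.62, 2.41 to 2.85), and Por, which hands electrons to P450s, at 71.7 and 149 CPM (1.05, 0.86 to 1.25). The phenobarbital marker Cyp2b10 had 15 and 11 counts and was not measured. Reads of near-identical P450 copies may not be told apart, so single members of the Cyp2b, Cyp2c, Cyp3a and Cyp4a families are uncertain.

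Conjugating and antioxidant genes held lower members and none 2-fold higher. Among 23 measured conjugation and carboxylesterase genes of 27 listed, 5 were lower and the median was -0.12. They were the esterases Ces2a (220 and 53.0 CPM, -2.05, -2.24 to -1.86), Ces3b, Ces1e and Ces2c and the acetyltransferase Nat8. Of 38 measured glutathione and antioxidant genes among 41 listed, 7 were lower and the median was -0.14. The alpha class transferase Gsta2 stood at 199 CPM in ND, 13.6 in HFD_HDCA and 21.9 in HFD (-3.86, -4.22 to -3.53), and Gsta1 at 42.1 and 1.92 CPM (-4.40, -5.48 to -3.58). Gsta4, Gstm3, Gstm4, Aox1 and Aox3 were the others. Gsta1 and Gstm3 passed the minimum only through ND, and reads of the Gsta and Gstm copies may not be told apart. The NRF2 gene Nfe2l2 and the catalytic subunit gene Gclc of glutathione synthesis had ratios of 0.04 and -0.54, and Nqo1, an NRF2 target, had 34 and 41 counts.

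Some genes known to be male-biased in mouse liver were lower and some known to be female-biased were higher. The sex of the mice was not given, and its part in these differences was not tested. Of 27 measured male-biased genes among 31 in the files, 11 were 2-fold lower, 2 were higher and the median was -0.83. Cyp4a12b and Selenbp2 were measured only through ND, and the median was -0.81 without them and Mup18, which passed the minimum narrowly. Besides Cyp4a12b and Selenbp2, they included the steroid enzyme Hsd3b5 at 109 CPM in ND, 15.2 in HFD_HDCA and 106 in HFD (-2.84, -3.19 to -2.51), the elongase Elovl3 at 164 and 45.7 CPM (-1.84, -2.05 to -1.64) and Cyp4a12a at 314 and 89.3 CPM (-1.81, -1.96 to -1.66). Major urinary protein genes, whose copies are nearly identical, diverged. Mup7 stood at 338 and 117 CPM (-1.53) and Mup20, the pheromone darcin, at 24838 and 13799 CPM (-0.85), while Mup17 stood at 263 and 669 CPM (1.35) and Mup21 at 183 and 385 CPM (1.07). Of 24 female-biased genes, 6 were measured and 5 of them were 2-fold higher, but 4 of those 5, Cyp2b9, Cyp2a4, Acot3 and Cyp17a1, passed the minimum only through HFD_HDCA. The fifth was Hamp2, a relative of hepcidin, at 107 CPM in ND, 560 in HFD_HDCA and 219 in HFD (2.39, 2.24 to 2.53). Below the minimum, Cyp2b13 had 0 counts in ND, 81 in HFD_HDCA and 0 in HFD, at least 19.6-fold higher against a floor of 3 counts in the ND library, and Hao2 had 0, 35 and 1, at least 8.46-fold higher. Others stayed at or near 0 in both, among them Sult2a1, Cux2 and Cyp3a41a with 0 counts.

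The growth hormone axis, which sets much of this bias, gave 11 measured genes of 18, 2 higher, 1 lower and a median of 0.44. Bcl6, a repressor that acts against STAT5 at female-biased genes, stood at 117 CPM in ND, 16.0 in HFD_HDCA and 21.1 in HFD (-2.86, -3.21 to -2.54). The prolactin receptor Prlr stood at 83.5 and 175 CPM (1.06, 0.89 to 1.25). With each cell weighted equally the ratio of Prlr was 0.95. The growth hormone receptor Ghr had a ratio of 0.44, Stat5b of -0.33 and Igf1 of 0.02. With no count minimum the list median was -0.12.

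Of the genes that mark hepatocytes near the central vein, more than 1 in 2 were higher, and those near the portal vein stood on both sides. Of 21 measured pericentral genes among 29 listed, 12 were 2-fold higher, 2 were lower and the median was 1.09. Lhpp, among the higher, and Gstm3, among the lower, were measured only through the library where they are high. The P450 genes Cyp2e1, Cyp2a5 and Cyp2c37, named above as higher, are also in this list. Cyp2e1 was counted in 36.3% of thinned ND cells (34.3 to 38.3%) and 75.5% of thinned HFD_HDCA cells (73.8 to 77.1%), and in 15.7 and 44.4% of the left-out cells. Slc1a2, a glutamate transporter of the cells around the vein, stood at 15.4 and 130 CPM (3.06, 2.70 to 3.47), and the secreted factor Lect2 at 57.0 and 228 CPM (2.0, 1.80 to 2.21). Oat, of ornithine breakdown, stood at 333 and 965 CPM (1.54, 1.45 to 1.62) and the gulonolactone oxidase Gulo at 75.8 and 268 CPM (1.82, 1.65 to 2.0). Glutamine synthetase, Glul, stood at 79.1 and 229 CPM (1.53, 1.36 to 1.71), with 285 CPM in the left-out cells, and was counted in 1.84 and 5.20% of thinned kept cells against 8.82 and 25.9% of left-out cells. Its share in kept cells was thus below that in cells of another type. The Wnt feedback gene Rnf43 was lower at 23.6 and 10.6 CPM (-1.14, -1.63 to -0.67), and Lgr5 and Axin2 were not measured, with 13 and 50 counts and 19 and 20 counts.

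All 28 periportal genes were measured, with 2 higher, 5 lower and a median of -0.08. E-cadherin, Cdh1, stood at 94.3 CPM in ND, 4.88 in HFD_HDCA and 39.4 in HFD (-4.25, -4.88 to -3.72) and passed the minimum only through ND. The lyase Etnppl stood at 519 and 186 CPM (-1.48, -1.59 to -1.37) and Hal, of histidine breakdown, at 563 and 260 CPM (-1.12, -1.21 to -1.02). Cyp2f2, named above among the P450s, is also in this list and was another of the lower genes. Gluconeogenic Pck1 stood at 1730 and 3668 CPM (1.08, 1.05 to 1.12), and its ratio was 0.998 in thinned cells. Within the 3 lobular classes described next, the Etnppl ratio was -0.82 in the periportal, -2.79 in the middle and -3.78 in the pericentral class. Urea cycle genes of the portal side lay near 0, with Cps1 at -0.12, Ass1 at 0.01 and Arg1 at 0.06.

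Ratios were also taken along the lobule. Cells of each library were ranked by their share of pericentral minus periportal landmark counts and cut into 3 equal classes, which are ranges of a score and not cell types. Cyp3a11 stood at 3948 and 22.5 CPM in the periportal class (-7.44, -7.85 to -7.09), at 4257 and 156 CPM in the middle class (-4.77, -4.99 to -4.55) and at 6074 and 414 CPM in the pericentral class (-3.87, -3.98 to -3.77). Scd1 went the other way, with ratios of -1.42 (-1.46 to -1.38), -1.94 (-2.0 to -1.89) and -2.85 (-2.91 to -2.80) in the same order. Cyp2b9 in HFD_HDCA stood at 83.6, 211 and 377 CPM. Insig1 differed little between the classes, with ratios of 1.45, 1.55 and 1.61. The ratio of Cyp27a1 was -1.70 (-2.05 to -1.37) in the periportal, -0.32 in the middle and -0.60 in the pericentral class. That of Cyp7b1 was -1.58 (-1.83 to -1.33) in the periportal class and -0.61 in the middle class, with an interval of -0.26 to 0.27 in the pericentral class, and that of Cyp8b1 was -0.22, -0.91 and -1.25. Ratios of single genes by class are given only for genes picked by the naming rule below, other than landmarks. Further genes named here, such as Elovl2, Mlxipl and Nr1d2, have none. Some other picked genes named here as 2-fold apart did not reach 2-fold in 1 class or more. In the periportal class these were Cyp2a12 (-0.86), Slco1b2 (0.82), Cd36 (0.72), C8a (-0.97), Xaf1 (-0.87), Atf3 (0.63) and Hsph1 (0.83). In the middle class they were Cyp39a1 (0.41), Abcd2 (0.47), Apoa4 (-0.03), Nat8 (-0.92), Ces1e (-0.93) and Hspa1b (0.89), and in the pericentral class Slco1b2 (0.98), Prlr (0.96), Per2 (0.86), C8a (-0.89) and Fosb (0.66). Cd36, Xaf1, Cyp39a1, Abcd2, Apoa4, Nat8, Hspa1b, Per2 and Fosb had fewer than 100 counts there. The classes are not matched between libraries. Their median score was -0.93, -0.53 and 0% of counts in ND and -0.87, 0.17 and 0.96% in HFD_HDCA, and their cells had medians of 1225, 746 and 678 nuclear-encoded counts in ND and 2240, 799 and 1142 in HFD_HDCA.

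Genes of the clock loop differed in opposite directions. The activator Arntl, which encodes BMAL1, had 48 counts in ND and 9 in HFD_HDCA and was not measured, while its partner Clock stood at 60.9 and 27.4 CPM (-1.15, -1.45 to -0.86), with 89.4 CPM in the left-out cells. Some of the genes they activate were higher, while Nr1d1 and Cry1 had ratios of 0.57 and -0.66. Per3 stood at 1.68 CPM in ND, 28.4 in HFD_HDCA and 16.5 in HFD (3.98, 3.00 to 5.42), the repressor Ciart at 1.44, 27.6 and 30.3 CPM (4.14, 3.10 to 5.72), Per1 at 8.66, 36.8 and 28.6 CPM (2.07, 1.57 to 2.64) and Per2 at 14.4, 38.2 and 36.5 CPM (1.40, 0.99 to 1.84). Nr1d2, the repressor REV-ERBβ, stood at 45.2 and 108 CPM (1.25, 1.01 to 1.49). In all, 5 of 11 measured core genes of 13 were 2-fold higher, 1 was lower and the median was 0.57, with Per1, Per3 and Ciart passing the minimum only through HFD_HDCA. The median was 0.47 without these 3 genes. It was 1.25 over the 9 genes not higher in left-out cells, a set that keeps these 3 and leaves out Clock.

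Output and rhythmic genes gave 14 of 21 measured genes 2-fold higher out of 24 listed, 1 lower and a median of 1.24. Usp2, Wee1, Zbtb16 and the lower gene Leo1 were measured only through the library where they are high, and the median without them was 1.13. Dbp, a factor that the clock drives directly, stood at 12.0 CPM in ND, 102 in HFD_HDCA and 72.1 in HFD (3.07, 2.66 to 3.53). The deubiquitinase Usp2 stood at 2.16, 53.5 and 44.6 CPM (4.55, 3.68 to 5.77), and Rgs16, a brake on G-protein signals that follows feeding, at 17.3, 207 and 321 CPM (3.57, 3.24 to 3.95). Tef and the deadenylase Noct stood at 37.0 and 99.6 CPM (1.42, 1.17 to 1.69) and at 62.5 and 264 CPM (2.07, 1.88 to 2.27). Lpin1 and Alas1, named above, are also in this list. The hour of isolation was not given, so a difference in hour and a difference in diet cannot be told apart for these genes.

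Promoters of Ciart and Per3, which were the furthest apart of the core genes, are shown with the clock's motifs in capitals. The E-box CACGTG, bound by BMAL1 and CLOCK and the same on both strands, is marked in Ciart, and the D-box searched as TTANGTAA, bound by DBP and TEF, is marked in Per3. The sequences are again of RefSeq build GRCm38.p6, 250 bases before to 50 after the start. They lie on chr3:95882179-95882478 and chr4:151044616-151044915, both on the minus strand.
Ciart: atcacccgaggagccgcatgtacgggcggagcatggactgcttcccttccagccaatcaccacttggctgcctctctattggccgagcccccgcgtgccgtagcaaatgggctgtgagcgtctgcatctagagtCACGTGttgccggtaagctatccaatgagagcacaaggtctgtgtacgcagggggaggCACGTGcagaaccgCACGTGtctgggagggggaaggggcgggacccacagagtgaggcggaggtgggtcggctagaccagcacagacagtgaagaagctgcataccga
Per3: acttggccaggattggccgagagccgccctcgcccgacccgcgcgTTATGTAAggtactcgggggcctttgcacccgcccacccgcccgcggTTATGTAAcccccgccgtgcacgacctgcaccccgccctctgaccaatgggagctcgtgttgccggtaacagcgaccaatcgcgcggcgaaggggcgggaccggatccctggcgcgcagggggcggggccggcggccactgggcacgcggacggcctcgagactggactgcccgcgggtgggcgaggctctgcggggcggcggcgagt
The 3 E-boxes of Ciart lay 116 to 111, 58 to 53 and 44 to 39 bases before its start, and the 2 D-boxes of Per3 lay 205 to 198 and 158 to 151 bases before its start. An E-box was found in 3 of 11 core clock genes with a promoter in the table and in 4 of 20 output genes, against 7.15% of all 32851 promoters and 12.5% of the measured genes with one. A D-box was found in 1 of the 11 and 2 of the 20, against 2.32% of all promoters. Dbp, Usp2 and Rgs16 held neither in these windows.

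In glucose metabolism and insulin action, 29 of 30 genes were measured, 4 were higher, 2 were lower and the median was 0.25. Pfkfb3, which makes the activator of glycolysis fructose bisphosphate, stood at 3.61 CPM in ND, 66.6 in HFD_HDCA and 58.4 in HFD (4.16, 3.47 to 5.06), and the glycogen-targeting subunit gene Ppp1r3g at 2.16, 22.5 and 11.6 CPM (3.31, 2.41 to 4.54). Both passed the minimum only through HFD_HDCA. Igfbp2, a binding protein of insulin-like growth factors, stood at 494 and 114 CPM (-2.12, -2.25 to -1.99), and Ppp1r3c at 137 and 37.8 CPM (-1.86, -2.09 to -1.63). G6pc, of glucose release, had a ratio of -0.14. All 41 genes of the urea cycle and amino acid breakdown were measured, with 2 higher, 3 lower and a median of 0.03. Of 18 measured methionine and one-carbon genes among 21, none was higher, the median was -0.02 and betaine-homocysteine methyltransferase, Bhmt, was lower at 1261 CPM in ND, 453 in HFD_HDCA and 1754 in HFD (-1.48, -1.54 to -1.41). Bhmt was the 1 gene of the list past 2-fold, a share near the 5.14% of all measured genes.

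Lists of secreted proteins and metal handling had shares past 2-fold above the 5.14% of all measured genes, on counts of 2 or 3 genes each. Of 20 measured acute phase genes among 26, 2 were higher, none was lower and the median was 0.05. They were the inhibitor Serpina3m at 109 and 276 CPM (1.34, 1.19 to 1.49) and the factor Cebpb at 294 and 817 CPM (1.47, 1.38 to 1.57). All 33 complement and coagulation genes in the files were measured, 3 were lower (C8a, C8b and F11, with ratios of -1.09, -1.33 and -1.15), none was higher and the median was -0.17. F11 had a ratio of -0.82 in thinned cells, on fewer than 100 counts. Among 18 measured secreted metabolic signals of 24, Serpina7, the thyroxine-binding globulin, stood at 16.8 CPM in ND, 121 in HFD_HDCA and 34.9 in HFD (2.83, 2.49 to 3.22), the activin subunit Inhba at 41.6 and 11 CPM (-1.91, -2.36 to -1.50), and the list had 1 higher, 2 lower and a median of 0.06. Metal handling gave 18 measured of 19, 1 higher, 2 lower and a median of -0.07, with the manganese exporter Slc30a10 at 87.3 and 27.6 CPM (-1.66, -1.94 to -1.39) and hepcidin, Hamp, at 6311 and 3628 CPM (-0.80, -0.82 to -0.77).

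The title of the study names GLP-1 and invariant natural killer T cells. Cd1d1, which presents lipids to these T cells, stood at 215 CPM in ND, 266 in HFD_HDCA and 231 in HFD (log2 0.31). The GLP-1 receptor gene Glp1r had 0 counts in both libraries, which allows up to 0.722 CPM in ND and 0.523 CPM in HFD_HDCA at 3 counts. Of 18 measured antigen presentation genes among 31 in the files, none was higher, 1 was lower (Ccl9, a chemokine, -1.49, -1.80 to -1.19) and the median was 0.14. Interferon response genes gave 14 measured of 34, none higher, 1 lower (Xaf1, -1.24, at 55.9 CPM in left-out cells and 21.2 and 8.90 CPM in kept cells) and a median of -0.13. Xaf1, Ifi47 and Irf1 were measured only through 1 library, and the median without them was 0.14. Both lists had shares past 2-fold near the 5.14% of all measured genes, on 1 gene each.

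Stress and structural genes complete the lists. Of 22 measured endoplasmic reticulum stress genes among 25, 2 were higher (Herpud1 at 482 and 1121 CPM, 1.22, 1.14 to 1.29, and Atf3 at 1.05), none was lower, and the median was 0.22. The ratio of Atf3 was 0.89 among cells with at most 20% mitochondrial counts, and its level in left-out cells was 44.7 CPM. Immediate early and heat shock genes, which can respond to cell isolation, gave 25 measured of 33, 4 higher (Fos, Fosb, Hspa1b and Hsph1), none lower and a median of 0.39. Fos stood at 185 and 706 CPM (1.93, 1.82 to 2.04). Hspa1b had a ratio of 0.79 in thinned cells, on fewer than 100 counts, and 0.86 with cells weighted equally, against 1.17. Hsph1, at 1.03, had a ratio of 0.99 with the most abundant genes out of the total and 0.96 in cells with at least 500 genes. Liver identity factors gave 17 measured of 19, none past 2-fold, and a median of -0.08. In the junction and cytoskeleton list, 26 of 32 genes were measured, 2 were higher, 5 were lower and the median was -0.55. Besides Cdh1 they were the tubulin Tubb2a at 167 and 42.0 CPM (-1.99, -2.21 to -1.78), Cldn1 at 112 and 29.3 CPM (-1.93, -2.20 to -1.67), Sox9 (-1.68) and Krt18 (-1.04), while the claudin Cldn2 was higher at 27.7 and 89.3 CPM (1.69, 1.40 to 2.0). Tmsb4x, the other higher one, stood at 6595 CPM in left-out cells and at 18.5 and 50.4 CPM in kept cells. None of 79 measured nuclear oxidative phosphorylation genes and none of 81 measured ribosomal protein genes reached 2-fold, with medians of -0.08 and -0.07.

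**Figure D5:**
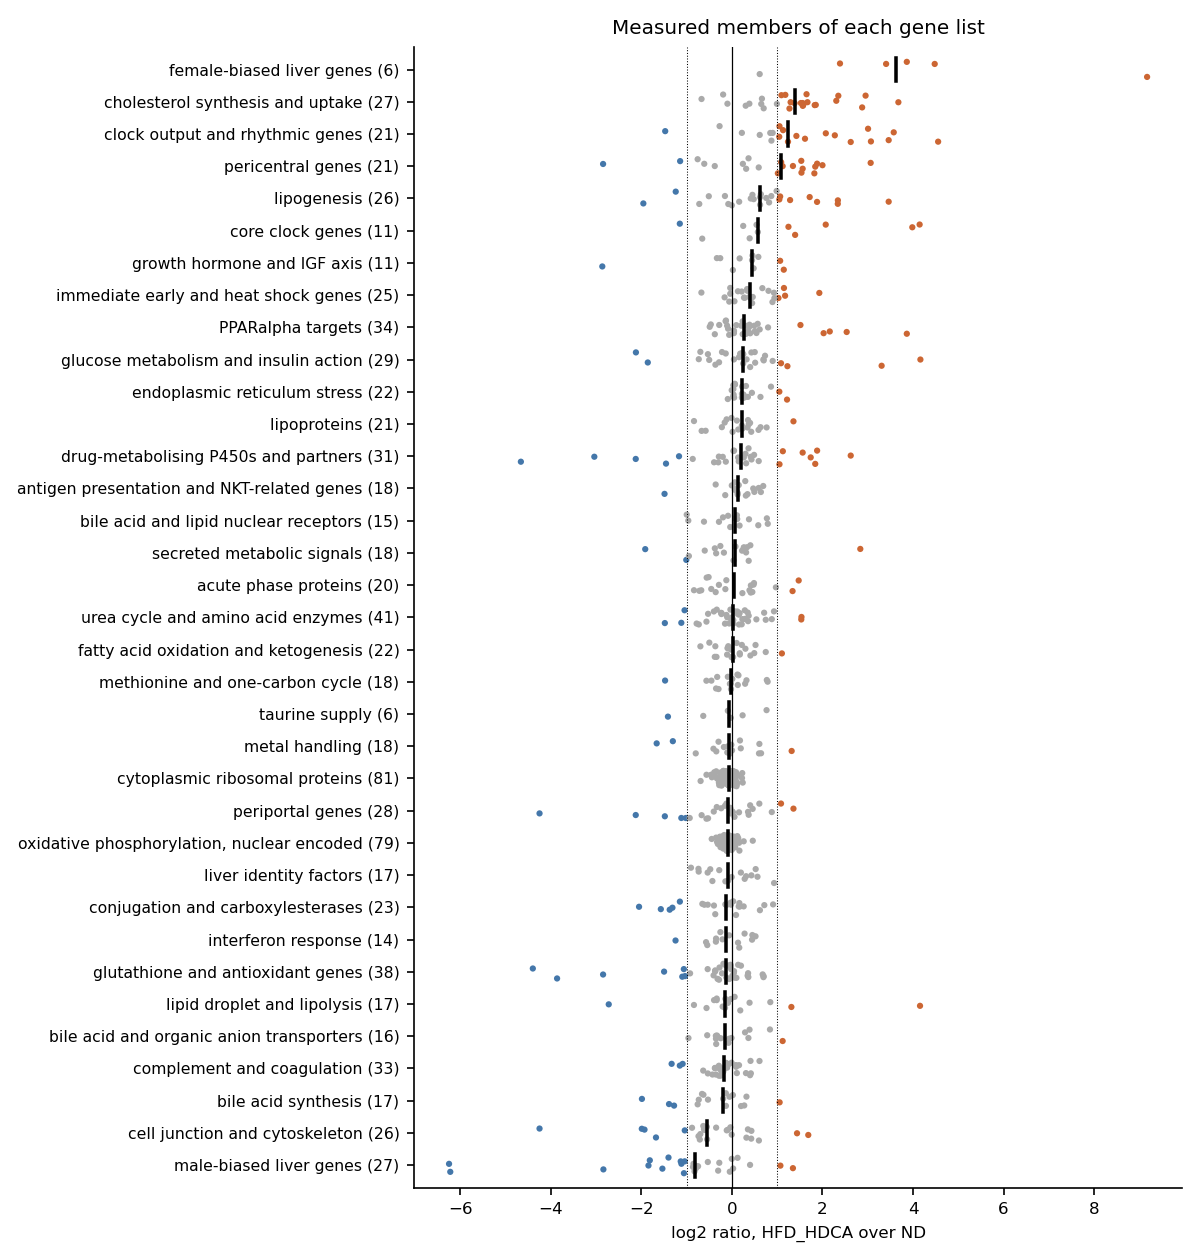
Log2 ratio of HFD_HDCA over ND for the measured members of each of the 35 gene lists (number measured in brackets), with the list median as a black bar and dotted lines at 2-fold. Cholesterol, clock output and pericentral genes have medians above 1. Female-biased genes do too, but 4 of the 6 measured passed the count minimum only through HFD_HDCA and so had to be higher. Male-biased genes have the lowest median (-0.83), and ribosomal and oxidative phosphorylation genes lie close to 0.

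Depth, mitochondrial share and left-out cell types moved with the groups, so each count was also taken with these narrowed. With at most 20% mitochondrial counts per cell, 186 genes were higher and 148 lower, with at least 500 genes per cell 177 and 137, and with no endothelial or Kupffer gene detected 200 and 165. Of the 98 genes named by rule that were at least 2-fold apart, 96, 94 and 98 stayed 2-fold apart in the same direction under these settings. After thinning every cell to 500 counts, 91 did. With each cell weighted equally 94 did, and in the periportal, middle and pericentral classes 85, 91 and 90. Genes below the count minimum under a setting were counted too. Most of these genes were picked for large ratios in the same cells, so their staying apart is no independent check.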

How the data were processed

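The authors deposited gene-by-barcode UMI count matrices, 1 per library, made with Cell Ranger 5.0.0, per the file headers, on mm10, per the submitters' processing notes. How barcodes were selected is not given in the sources used here. Counts were not normalized before deposit. Kept cells were summed per library and scaled to counts per 1000000 nuclear-encoded counts (CPM) with Python 3.11.15, numpy 2.4.6, pandas 2.3.3 and scipy 1.17.1. Genes needed a summed count of at least 100, and 2-fold was the limit for calling a gene higher or lower. Shares of cells were taken after thinning to 500 counts per cell. Doublets were neither called nor removed. The scripts were tested on simulated data.

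With 1 library a group, no test was made, and intervals and the floor of 3 counts for a gene at 0 cover counting error only. A 3′ kit reads transcript ends, and reads of near-identical copies (P450 genes of the Cyp2, Cyp3a and Cyp4a families, and Mup, Gsta, Gstm, Ces and Acot genes) may not be told apart. The summed depth was 4157680 nuclear-encoded counts in ND, 5733247 in HFD_HDCA and 3701480 in HFD.

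The comparison and the gene lists were chosen with earlier results of these data known. The naming rule took the 15 highest and 15 lowest ratios among genes reaching 50 CPM in 1 library and not exceeded in left-out cells, from each list at most 4 genes, those furthest from 0, and a fixed set of metabolic and clock genes. Other list members were named after their values were seen, and some listed genes are not reported here by name. Alternatives were other scalings, count minimums, cell weights, thinning, stricter cell filters, leaving out barcodes shared between libraries, lobular classes and, chosen after seeing the data, leaving out cells with markers of another type.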

Additional observations from a re-analysis of the deposited data

How the results depend on the processing

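The main values were 195 genes at least 2-fold higher and 162 lower of 6944. A count minimum of 20 gave 379 higher and 450 lower of 10074 genes, a minimum of 500 gave 98 and 57 of 2623, and no minimum gave 1966 and 1992 of 14979. Thinning to 500 counts a cell gave 112 and 85 of 3257 genes, with 98 and 63 of them among the main calls. Fewer or more genes are tested under each of these. Within lobular classes, 135 genes were higher and 100 lower of 4662 in the periportal class. The middle class gave 133 and 86 of 3098 genes, and the pericentral class 121 and 99 of 3606. As shares these were 2.9 and 2.1%, 4.3 and 2.8%, and 3.4 and 2.7%. The other 9 settings kept both counts within 1.5-fold, from 153 to 214 higher and from 123 to 207 lower. The lowest counts, 153 and 123, were of the 3239 genes not higher in left-out cells, which are shares of 4.72 and 3.80%. No gene named by rule and measured under a setting turned its direction after being called. Of the list medians, that of the growth hormone axis was -0.12 and that of secreted signals -0.18 with no count minimum, and that of transporters was -0.53, 0.12 and 0.26 in the periportal, middle and pericentral class. Depth limits rare transcripts, since a gene with 0 counts in ND may stand at up to 0.722 CPM. No paired analysis was possible because each group has 1 library.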

Other observations

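Cib3, a calcium and integrin binding family member, fell outside the naming rule because its higher level was under 50 CPM, and it was chosen after its values were seen. It had 153 counts in ND and 2 in HFD_HDCA, levels of 36.8 and 0.349 CPM with 9.46 CPM in HFD, and a log2 ratio of -6.40 with a 95% counting interval of -9.78 to -4.84.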
